A study of Mus musculus with 45 samples.

Results

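The effect of the medium in which male embryonic stem cells (ESCs) had been kept was measured 2 days after they left it. The comparison covered 6 of the 45 RNA-seq libraries: the 3 taken at day 2 from cells of 2iL origin and the 3 taken at day 2 from cells of SL origin, chosen by their titles. All cells were wild-type E14tg2a, a male mouse ESC line of 129/Ola background, and a single line was used throughout. 2iL is the serum-free medium N2B27 with LIF and inhibitors of GSK3 (CHIR99021) and MEK (PD0325901), and SL is serum with LIF. From each medium the cells entered 3 differentiation courses, which the labels call EB (suspension culture in serum without LIF), EpiSC (adherent culture in N2B27 with Fgf2 and Activin A) and Neural (adherent culture in N2B27 alone). The labels gave 1 library for each medium, course and day, so the courses served as replicates, and each 2iL library was paired with the SL library of its course. The p-values therefore measure how evenly the difference between the media held over 3 unlike cultures, each grown once.

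The inhibitors in 2iL hold ESCs in a uniform naive state, which resembles the epiblast of the preimplantation blastocyst and in which the genome carries little DNA methylation. Serum with LIF allows a mixed population, with cells that drift toward later epiblast, toward extraembryonic endoderm, or briefly into a state resembling the 2-cell embryo. On release from either medium, naive genes are silenced within days, formative epiblast genes such as Otx2 and Fgf5 are switched on, and the de novo methyltransferases remethylate the genome.

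Between 15101710 and 39253633 reads were counted per library, with the highest totals in the EB pair. Levels are given as CPM, counts scaled to a common library size with TMM normalization factors, and 3 counts corresponded to between 0.0778 and 0.198 CPM. TMM factors ranged from 0.8527 to 1.018, with the lowest in the 2iL Neural library, where the 10 most abundant genes held 22.1% of the counts. Folds are given on the log2 scale from edgeR's quasi-likelihood test with course as a block, and are positive where the level was higher from 2iL. A gene was called at a Benjamini-Hochberg adjusted p under 0.05. For genes near the 3-count level, the fitted fold depends on the small count that the software adds.

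At day 2, the origin of the cells was still visible in 1404 of 14095 genes tested (9.96%). From 2iL, 741 genes were higher (5.26% of those tested) and 663 were lower (4.7%). All 1404 had the same sign in the 3 courses. The change was at least 2-fold for 315 of the higher and 401 of the lower genes. The libraries of the media did not overlap for 1052 of the 1404 called genes and for 3275 of all 14095 tested (23.2%). The called genes were chosen by this difference in the same libraries, so more non-overlap among them is built in. The median log2 fold over all genes tested was 0.018. With library totals in place of TMM factors, 599 of 1671 called genes were higher from 2iL (35.8%, against 52.8% with TMM). The share was also under 50% with DESeq2 (48.5%), without the filter on low counts (47.6%) and without the EB pair (45.4%), so no direction prevailed under every setting. Without the block for course 226 genes were called, without the EpiSC pair 223, and without the Neural pair 386, whereas 2076 were called without the EB pair. The differences between media in the EpiSC and Neural courses had a Pearson correlation of 0.81 across the 14095 genes. Those of EB had 0.59 with EpiSC and 0.57 with Neural. These values describe genes of libraries that share the line, and the labels do not state whether the courses shared starting cultures.

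The largest differences at day 2 lay in a single stretch of the X chromosome that holds the Xlr3, Xlr4 and Xlr5 genes, an X-linked, lymphocyte-regulated multigene family related to the meiotic protein SYCP3. All 9 members were called higher from 2iL, against 5.26% of all genes tested, with log2 folds from 5.34 to 6.91. In GRCm38 they lie at chrX:73074345-73292976, a region of 219 kb with 12 genes tested, of which 11 were higher. The other higher genes there were Gm14685 and DXBay18, while F8a had a log2 fold of 0.76 (SE 0.36, edgeR adjusted p = 0.22). The family was singled out after its values were seen. Members of the same subfamily are close copies, so the division of reads between them is uncertain. A promoter from each subfamily is shown because these genes carried the largest folds, taken from RefSeq (GRCm38.p6) as the 250 bases before to 50 after the start, with CpG dinucleotides, the sites of DNA methylation, in capitals.
Xlr3b promoter, chrX:73191929-73192228, plus strand: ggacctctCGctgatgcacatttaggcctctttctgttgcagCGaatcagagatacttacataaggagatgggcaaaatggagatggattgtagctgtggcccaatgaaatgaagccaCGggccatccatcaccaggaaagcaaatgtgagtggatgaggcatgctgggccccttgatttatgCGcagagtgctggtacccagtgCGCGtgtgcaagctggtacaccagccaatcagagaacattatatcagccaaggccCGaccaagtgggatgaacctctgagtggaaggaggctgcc
Xlr4b promoter, chrX:73214083-73214382, plus strand: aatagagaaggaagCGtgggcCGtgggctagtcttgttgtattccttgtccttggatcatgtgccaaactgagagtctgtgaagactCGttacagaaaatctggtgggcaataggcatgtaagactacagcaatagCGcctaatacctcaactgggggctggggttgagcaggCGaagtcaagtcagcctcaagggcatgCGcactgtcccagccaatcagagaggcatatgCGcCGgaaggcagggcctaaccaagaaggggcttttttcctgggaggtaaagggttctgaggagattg
Xlr5b promoter, chrX:73148591-73148890, plus strand: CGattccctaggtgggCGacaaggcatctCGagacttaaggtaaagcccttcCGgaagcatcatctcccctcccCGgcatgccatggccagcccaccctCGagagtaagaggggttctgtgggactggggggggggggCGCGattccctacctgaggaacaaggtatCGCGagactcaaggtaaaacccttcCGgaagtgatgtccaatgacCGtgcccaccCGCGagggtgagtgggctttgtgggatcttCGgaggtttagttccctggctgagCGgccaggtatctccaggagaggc

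The 300-base windows held 7 CpG dinucleotides for Xlr3b, 8 for Xlr4b and 16 for Xlr5b. The Xlr5b window shared a run of 255 bases with that of Xlr5a, but at most 8 with that of Xlr5c, which held 1 CpG, so it does not stand for the whole Xlr5 subfamily. Over 509 genes higher from 2iL with a RefSeq window the median was 13, over 489 lower genes it was 19, and over all 10210 genes tested with a window it was 21. Under 5 CpG dinucleotides were found in 18.7% of the windows of higher genes, in 8.18% of those of lower genes and in 7.12% of all. The longest string common to the 6 windows of Xlr3 and Xlr4 was the 14 letters CAGCCAATCAGAGA, so its presence in all 6 is by construction. No Xlr5 window held this string. It was found, on either strand, in 15 of 27025 RefSeq windows (0.0555%), those 6 included. Its inner letters CCAAT stood in 37.9% of all windows.

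Among the Xlr genes, Xlr3a was at 99.7, 114 and 86.1 CPM in the EB, EpiSC and Neural libraries from 2iL and at 0.662, 1.58 and 2.67 CPM in those from SL (log2 fold 6.08, SE 0.38, edgeR adjusted p = 0.0027). Xlr4b was at 12.8, 20.4 and 12.9 CPM from 2iL against 0.159, 0.264 and 0.381 CPM from SL (log2 fold 5.86, SE 0.29, edgeR adjusted p = 0.002). Xlr5b was at 9.49, 16.8 and 15 CPM from 2iL against 0.0265, 0.066 and 0.272 CPM from SL (log2 fold 6.91, SE 0.42, edgeR adjusted p = 0.0027). In all 3 courses every 2iL library lay far above every SL library. From SL, Xlr3a still had 25, 24 and 49 counts, whereas Xlr5b had 1, 1 and 5. Of the 34 listed genes of the Rhox homeobox cluster, also X-linked and active in germ line and placenta, 25 were not tested. Of the 9 tested, 5 were higher, against 5.26% of all genes tested. A gene can pass the filter on low counts through the libraries of a single medium, so the tested members may lean toward such genes. Rhox5 had 105 CPM from 2iL and 45.7 CPM from SL on average (log2 fold 1.19, edgeR adjusted p = 0.0076).

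**Figure D1:**
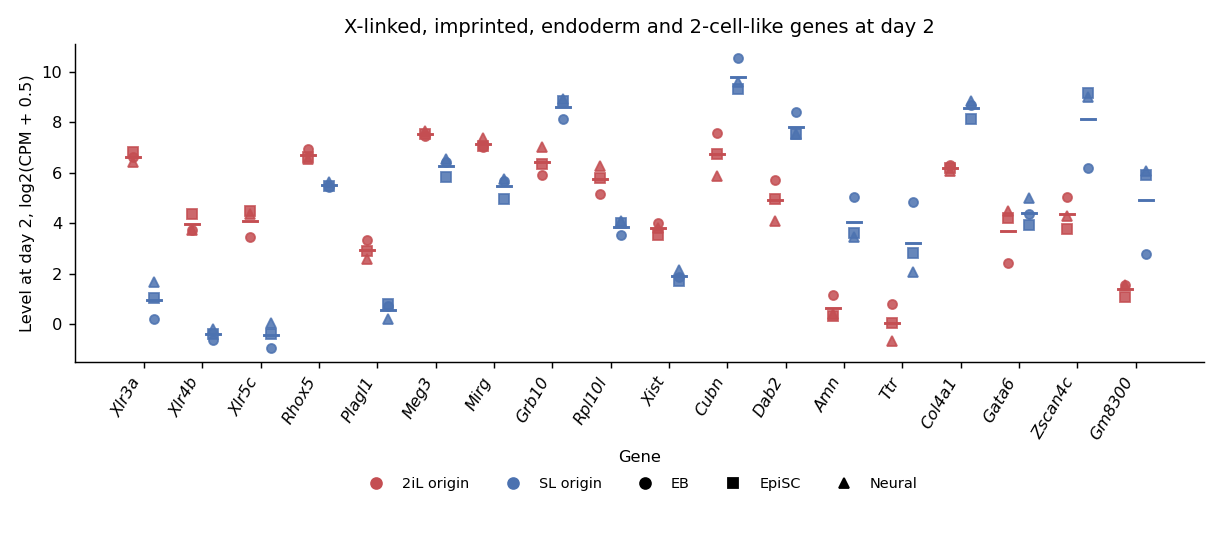
Levels at day 2 as log2(CPM + 0.5) of 18 genes in the 3 libraries from 2iL (red) and the 3 from SL (blue), with a symbol for each course and a line at the mean. Xlr3a, Xlr4b and Xlr5c lie far higher from 2iL, Cubn, Dab2, Amn, Ttr and Col4a1 lie higher from SL in every course, and the SL libraries of Zscan4c and Gm8300 split, with EB below EpiSC and Neural.

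Genes of extraembryonic endoderm, the lineage of the yolk sac, were lower from 2iL as a group. Of the 20 listed genes, all tested, 14 were called lower and 0 higher, with a median log2 fold of -1.98. Among all genes tested, 4.7% were lower and the median was 0.018. The endocytic receptors Cubn and Lrp2, with the Cubn partner Amn and the adaptor Dab2, take up nutrients in visceral endoderm. Cubn was at 192, 106 and 58.6 CPM in the EB, EpiSC and Neural libraries from 2iL and at 1480, 638 and 765 CPM in those from SL (log2 fold -3.08, SE 0.22, edgeR adjusted p = 0.0035). Amn was at 1.71, 0.773 and 0.825 CPM against 32.8, 11.7 and 10.6 CPM (log2 fold -4.02, SE 0.19, edgeR adjusted p = 0.002). For both genes every SL library was above every 2iL library. Secreted products of yolk sac and liver were lower too, with log2 folds of -4.27 for the thyroxine carrier Ttr, -4.51 for the fetal serum protein Afp and -4.48 for the apolipoprotein Apoa1. Of these, Afp was at 17.2, 3.76 and 1.09 CPM from SL and at 0.596, 0.0594 and 0.254 CPM from 2iL, so its level also differed widely between courses.

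Basement membrane genes, which parietal endoderm makes in quantity, followed, with log2 folds of -2.39 for Col4a1, -2.73 for Col4a2 and -2.07 for Lama1. Among the transcription factors, Gata4 (log2 fold -1.97), Sox7 (-1.92) and Hnf4a (-1.99) were called. Gata6 had 15 CPM from 2iL and 22.1 CPM from SL on average (log2 fold -0.75, edgeR adjusted p = 0.3), and Sox17 had 3.39 and 4.99 CPM (log2 fold -0.85, edgeR adjusted p = 0.39). Summed over the list, the level was between 989 and 1330 CPM in the 2iL libraries and between 2740 and 5070 CPM in the SL libraries, and no gene of the list was at 0 in all 6 libraries. In bulk RNA, fewer cells of a type and less RNA per cell cannot be told apart. Without the block, 7 members were called lower.

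The 10 called genes with the most negative folds and at least 1 CPM from SL were Apoa4, Fam151a, Pga5, AU019990, Prss12, Afp, Apoa1, Gm14149, Pramef25 and Clic6, with log2 folds from -5.39 to -4.31. Several had few counts from 2iL, such as 19, 0 and 0 for Apoa4 and 4, 0 and 0 for Fam151a in EB, EpiSC and Neural. The folds and ranks of such genes depend on the small count that the software adds. Pga5, a pepsinogen gene, was at 69.7, 67 and 8.17 CPM from SL and at 1.68, 3.03 and 0.508 CPM from 2iL in the EB, EpiSC and Neural courses. Clic6, of the chloride intracellular channel family, was at 79.6, 20.3 and 16.4 CPM against 2.57, 1.13 and 1.59 CPM. Each SL library stood above all 2iL libraries for both genes. Among markers of other cell types, 3 of 9 trophoblast genes tested were lower: the keratins Krt8 (log2 fold -1.81) and Krt18 (-1.57) and the caudal factor Cdx2 (-1.8). Krt18 is also on the formative and primed epiblast list, and Cdx2 on the primitive streak list. The summed level of the trophoblast list was 21.2 to 43 CPM from 2iL and 64.5 to 115 CPM from SL. Of 4 fibroblast genes tested, the proteoglycan gene Dcn was higher, at a mean of 9.68 CPM from 2iL and 2.18 CPM from SL, while Col1a1, Col1a2 and Thy1 had log2 folds from -0.93 to -0.61 and were not called. Of 8 endothelial and blood genes tested, the VEGF receptor Kdr was higher (log2 fold 2.3) and the blood factor Runx1 lower (-2.13). Over all genes tested 5.26% were higher and 4.7% lower, so calls in lists this small are not read as shifts of cell type. The part of these cell types in the other results was not tested.

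Genes of the 2-cell-like state were lower from 2iL in every library pair, and the size of the difference varied with the course. The 9 tested of 12 listed genes had a median log2 fold of -3.75, and all 9 were negative. A gene could pass the filter on low counts through the SL libraries alone, so the shared sign may partly come from the filter. Of the 9, 3 were called: Tmem92 (-4), Gm8300 (-3.71) and the arginase gene Arg2 (-3.6). Lower calls made up 4.7% of all genes tested. The Zscan4 genes, which mark this state in ESCs and act at telomeres, had adjusted p-values of 0.057 to 0.058 in the edgeR fit. Zscan4c was at 32.1, 13.3 and 18.9 CPM in the EB, EpiSC and Neural libraries from 2iL and at 73.2, 567 and 520 CPM in those from SL (log2 fold -3.87, SE 0.93, edgeR adjusted p = 0.058). Summed over the list, the SL libraries held 204 CPM in EB, 1600 CPM in EpiSC and 1490 CPM in Neural, and the 2iL libraries held 88.8, 37.6 and 52.8 CPM. DESeq2 called all 9 tested members. In edgeR, 12 were tested and called without the EB pair, and 0 were called without the block, without the EpiSC pair or without the Neural pair. Several of these genes are recent duplicates, so their counts are uncertain one by one.

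Imprinted genes, which are expressed from a single parental allele under the control of DNA methylation, were called in both directions. Of 28 tested, 12 were higher from 2iL, 3 were lower and 13 were not called, with a median log2 fold of 0.6. The shares over all genes tested were 5.26% higher and 4.7% lower. On chromosome 12, the maternally expressed RNAs of the Dlk1-Dio3 domain were higher together. Meg3 was at 175, 185 and 204 CPM from 2iL and at 86.4, 55.9 and 93.2 CPM from SL (log2 fold 1.28, SE 0.15, edgeR adjusted p = 0.01). Mirg, the host transcript of a large miRNA cluster, was at 131, 133 and 164 CPM against 50.1, 30.8 and 54.3 CPM (log2 fold 1.68, SE 0.14, edgeR adjusted p = 0.0048). In chr12:109452823-109749460, which runs from Dlk1 to Mirg over 297 kb, all 24 genes tested had positive log2 folds and 13 were called. Dlk1, the paternally expressed Notch ligand at its start, had 3.11 CPM from 2iL and 1.93 CPM from SL on average (log2 fold 0.7, edgeR adjusted p = 0.11).

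Of 9 miRNA gene models tested in this domain, 6 were called higher: Mir1906-1, Mir134, Mir668, Mir485, Mir377 and Mir410. Mir410 was at 4.48, 4.34 and 2.86 CPM from 2iL and at 0.98, 0.528 and 0.98 CPM from SL (log2 fold 2.2, SE 0.33, edgeR adjusted p = 0.019), without overlap between the media. These reads come from ribosomal-RNA-depleted long RNA, and reads of Mirg and of the hairpins inside it cannot be separated, so the mature miRNAs were not measured. Mature sequences of the called hairpins within Mirg are shown from RefSeq (GRCm38.p6) with the seed, bases 2 to 8, in capitals, since the seed sets which targets each could pair with, and no seed is shared among them.
mmu-miR-134-5p, chr12:109734145-109734166, plus strand: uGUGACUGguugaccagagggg
mmu-miR-668-3p, chr12:109734774-109734797, plus strand: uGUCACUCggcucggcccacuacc
mmu-miR-485-3p, chr12:109734946-109734967, plus strand: aGUCAUACacggcucuccucuc
mmu-miR-377-3p, chr12:109740553-109740574, plus strand: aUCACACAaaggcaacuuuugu
mmu-miR-410-3p, chr12:109743764-109743784, plus strand: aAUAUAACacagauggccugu

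Elsewhere among imprinted genes, Plagl1, which encodes a zinc finger regulator of growth, was at 9.49, 7.07 and 5.59 CPM from 2iL and at 1.14, 1.25 and 0.654 CPM from SL (log2 fold 2.88, SE 0.23, edgeR adjusted p = 0.0039). Peg3 and Usp29, neighbours with a shared imprinting control region, had log2 folds of 0.83 and 1.46, and Mest, Snrpn, Nnat, Zrsr1, Mcts2 and Slc38a4 were also higher. The growth-restraining adaptor gene Grb10 moved the other way, at 59.7, 82 and 131 CPM from 2iL and 280, 454 and 485 CPM from SL (log2 fold -2.19, SE 0.13, edgeR adjusted p = 0.0024). Igf2, a fetal growth factor, had a log2 fold of -1.8, and Phlda2, which limits placental growth, had -1.72. H19, which lies beside Igf2, had 122 CPM from 2iL and 23.7 CPM from SL on average but was not called (log2 fold 2.32, edgeR adjusted p = 0.12). Plagl1, Grb10 and Mirg stayed called under every alternative run.

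The DNA methylation machinery was called at 1 methyltransferase gene of 4 listed, Dnmt3l. This catalytically inactive cofactor of the de novo enzymes was at 522, 655 and 594 CPM from 2iL and at 185, 256 and 262 CPM from SL (log2 fold 1.35, SE 0.09, edgeR adjusted p = 0.0029). Dnmt3a had 345 CPM from 2iL and 339 CPM from SL on average (log2 fold 0.04, SE 0.08, edgeR adjusted p = 0.81), and Dnmt3b had 1510 and 1480 CPM (log2 fold 0.01, SE 0.07, edgeR adjusted p = 0.94), both with opposite signs between courses. Of the demethylating TET enzymes, Tet1 was higher from 2iL (log2 fold 0.52, edgeR adjusted p = 0.033), a call that was lost with library totals, without the block and without the EpiSC pair. All 8 genes of this list had positive log2 folds and 2 were called, against 9.96% of all genes tested.

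Germline genes whose promoters are kept silent by DNA methylation split in direction. Of 22 tested, 7 were higher and 2 lower from 2iL, and the median log2 fold was 0.039. The shares over all genes tested were 5.26% and 4.7%. The testis ribosomal protein gene Rpl10l was at 35.3, 55.3 and 75.7 CPM from 2iL and at 11, 15.6 and 16.4 CPM from SL (log2 fold 1.9, SE 0.13, edgeR adjusted p = 0.0029). The meiotic axis gene Hormad1 (log2 fold 1.12), the meiotic cohesin gene Smc1b (1.17) and the alpha tubulin genes Tuba3a (1.05) and Tuba3b (2.17) were higher. The synaptonemal complex gene Sycp3 was lower, at 4.48, 2.73 and 2.54 CPM against 26.9, 10.1 and 8.12 CPM (log2 fold -2.1, edgeR adjusted p = 0.0084), as was the piRNA pathway gene Mael (-0.85). Dazl, with 20 CPM from 2iL and 18.9 CPM from SL on average, was not called (log2 fold 0.09, edgeR adjusted p = 0.72).

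Of 17 naive pluripotency genes tested, 2 were called, a share near the 9.96% of all genes tested. Dppa3, a maternal factor that protects against DNA methylation, was at 2.31, 2.56 and 2.22 CPM from 2iL and at 0.503, 0.528 and 0.762 CPM from SL (log2 fold 1.99, SE 0.3, edgeR adjusted p = 0.019). Fbxo15 had a log2 fold of -0.49 (edgeR adjusted p = 0.045). Nanog was at 72.7, 77 and 37.1 CPM in the EB, EpiSC and Neural libraries from 2iL and at 67.5, 60.3 and 41.7 CPM in those from SL, with overlapping groups (log2 fold 0.1, SE 0.11, edgeR adjusted p = 0.58). Zfp42, also called Rex1, had a log2 fold of 0.06 (SE 0.13), and Klf4 -0.73 (SE 0.22, edgeR adjusted p = 0.094). Esrrb was at 37.3, 53.4 and 35 CPM from 2iL against 50.4, 15.6 and 19.5 CPM from SL, so the EB pair went against the other pairs (log2 fold 0.69, edgeR adjusted p = 0.31), and without that pair it was called (log2 fold 1.3, edgeR adjusted p = 0.011). Tfcp2l1 had a log2 fold of -0.47 (edgeR adjusted p = 0.26). Prdm14 did not pass the filter on low counts, at up to 0.337 CPM from 2iL and 0.689 CPM from SL.

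**Figure D2:**
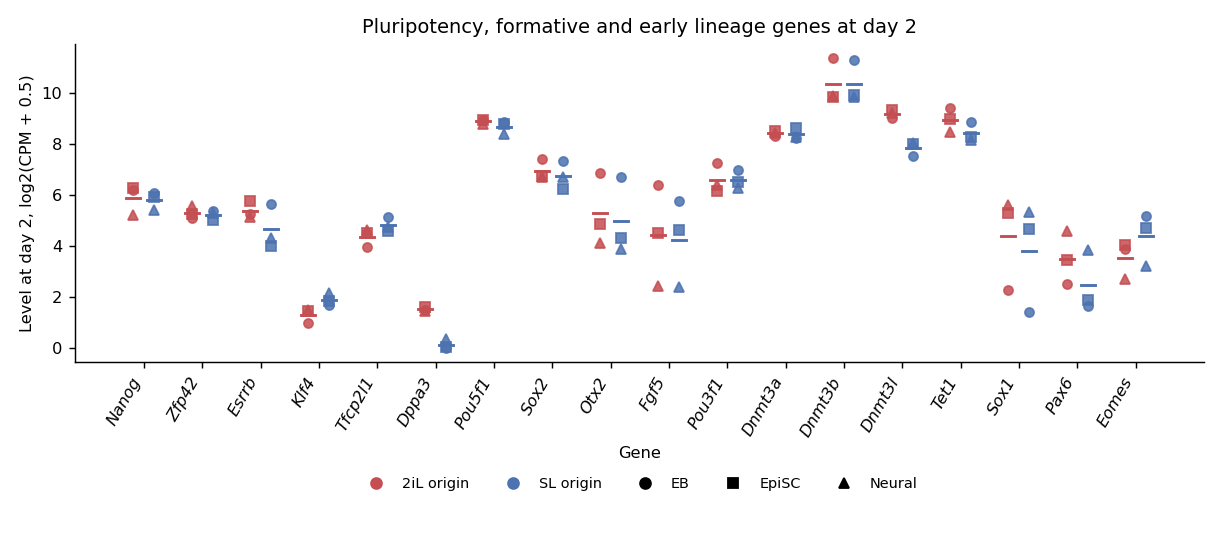
Levels at day 2 as log2(CPM + 0.5) of 18 pluripotency, formative and early lineage genes, with the 3 libraries from 2iL in red and the 3 from SL in blue, a symbol for each course and a line at the mean. Nanog, Pou5f1, Fgf5 and Dnmt3b overlap between media, Dppa3 and Dnmt3l do not, and for Otx2 and Fgf5 the courses lie further apart than the media.

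The core factors Pou5f1, also called Oct4, and Sox2 had log2 folds of 0.22 (SE 0.09) and 0.21 (SE 0.12) and were not called. In the general pluripotency list 3 of 12 genes were higher, against 5.26% of all genes tested. They were L1td1, at 544, 702 and 498 CPM against 323, 430 and 327 CPM (log2 fold 0.69, edgeR adjusted p = 0.0084), Zfp281 (0.49) and Rif1 (0.41). Of 18 formative and primed epiblast genes, Grhl2 was higher (0.54), and Lin28b (-0.72) and Krt18 were lower, against 9.96% of all genes called. Otx2 was at 117, 28.4 and 16.9 CPM from 2iL and at 105, 19.5 and 14.1 CPM from SL (log2 fold 0.31, SE 0.1, edgeR adjusted p = 0.11). Fgf5 (log2 fold 0.23, SE 0.17) and Pou3f1 (0.01, SE 0.13) were not called. Fgf5 ranged from 4.89 to 83.2 CPM across the courses from 2iL, and its media overlapped.

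Early lineage genes were called in both directions. In the neural list 4 of 11 tested genes were called, against 9.96% of all genes: the bHLH factor Olig3 (log2 fold 2.18), the eye and forebrain factor Pax6 (1.11) and the retinoic acid binding protein Crabp2 (0.78) were higher, and the forebrain gene Hesx1 was lower (-2.1, at most 1.7 CPM). The 11 genes had a median log2 fold of -0.1, with 5 positive and 6 negative, so no shift of the neural list is read. Olig3 was at 0.233, 10 and 41.8 CPM in EB, EpiSC and Neural from 2iL and at 0.053, 1.72 and 10.8 CPM from SL. Sox1 had a log2 fold of 0.61 (SE 0.15, edgeR adjusted p = 0.059). In the primitive streak list, Eomes (-0.89) and Cdx2 were lower among 12 tested, and T, or Brachyury, was at up to 2.05 CPM with a log2 fold of -0.51 (edgeR adjusted p = 0.58).

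The inhibitors in 2iL act on the ERK and Wnt pathways. In the edgeR test, 0 of 13 ERK feedback targets and 0 of 9 Wnt targets were called, with 3 and 5 at an unadjusted p under 0.05, and DESeq2 called 2 and 3. With 9.96% of all genes called, lists of this size would hold few calls in any case, so nothing particular to these targets is read from the counts. Etv5, the most abundant ERK target, was at 635, 385 and 329 CPM from 2iL against 527, 303 and 274 CPM from SL (log2 fold 0.29, SE 0.07, edgeR adjusted p = 0.057), and Lef1, the most abundant Wnt target, had a log2 fold of 0.44 (SE 0.14, edgeR adjusted p = 0.1). In DESeq2 their adjusted p-values were 0.015 and 0.037. In the Nodal pathway, the ligand Gdf3 was at 67.3, 59.4 and 78.8 CPM against 29.3, 33.5 and 39.1 CPM (log2 fold 1.02, SE 0.09, edgeR adjusted p = 0.0059), its transcriptional partner Foxh1 was higher (0.63), and the secreted antagonist Cer1 was lower (-3.17). Nodal, Lefty1 and Lefty2 had log2 folds of 0.23, 0.18 and 1.09 and were not called. Bmp2 (-1.52) was the only call of 12 BMP genes and Junb (-1.1) the only call of 9 genes of the LIF pathway.

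Of the metabolic and stress lists, the serine synthesis and ATF4 response had the most calls, 6 lower and 2 higher of 19 tested. Over all genes tested, 4.7% were lower and 5.26% higher. The stress-induced factors Atf3 (log2 fold -2.03) and Ddit3 (-0.97), the glutathione-degrading enzyme Chac1 (-1.07), the folate enzyme Aldh1l2 (-1.09), the lipoprotein receptor Vldlr (-1.39) and Phgdh, the entry enzyme of serine synthesis (-0.73), were lower. The amino acid transporter Slc7a3 (0.54) and Atf5 (0.59) were higher, and Atf4 itself had a log2 fold of 0.32 (edgeR adjusted p = 0.073). In the hypoxia and glycolysis list 3 of 24 were lower, all outside the glycolytic steps: the prolyl hydroxylases P4ha1 and P4ha2 and the stress gene Ndrg1. The cholesterol enzyme Sqle was the only call of 24 (0.43). Cyclin D1, Ccnd1, was lower at 27.7, 47.8 and 38.9 CPM against 48.9, 89.2 and 72.4 CPM (log2 fold -0.87, SE 0.07, edgeR adjusted p = 0.0042), as the only call of 13 genes of the G1 phase. The intermediate filament gene Vim was higher (0.68) and the tight junction gene Cldn6 lower (-1.94) among 14 cadherin and EMT genes. In edgeR, 0 of 14 p53 targets and 0 of 13 mitochondrially encoded genes were called, with 2 and 1 at an unadjusted p under 0.05, and DESeq2 called 2 and 1.

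**Figure D3:**
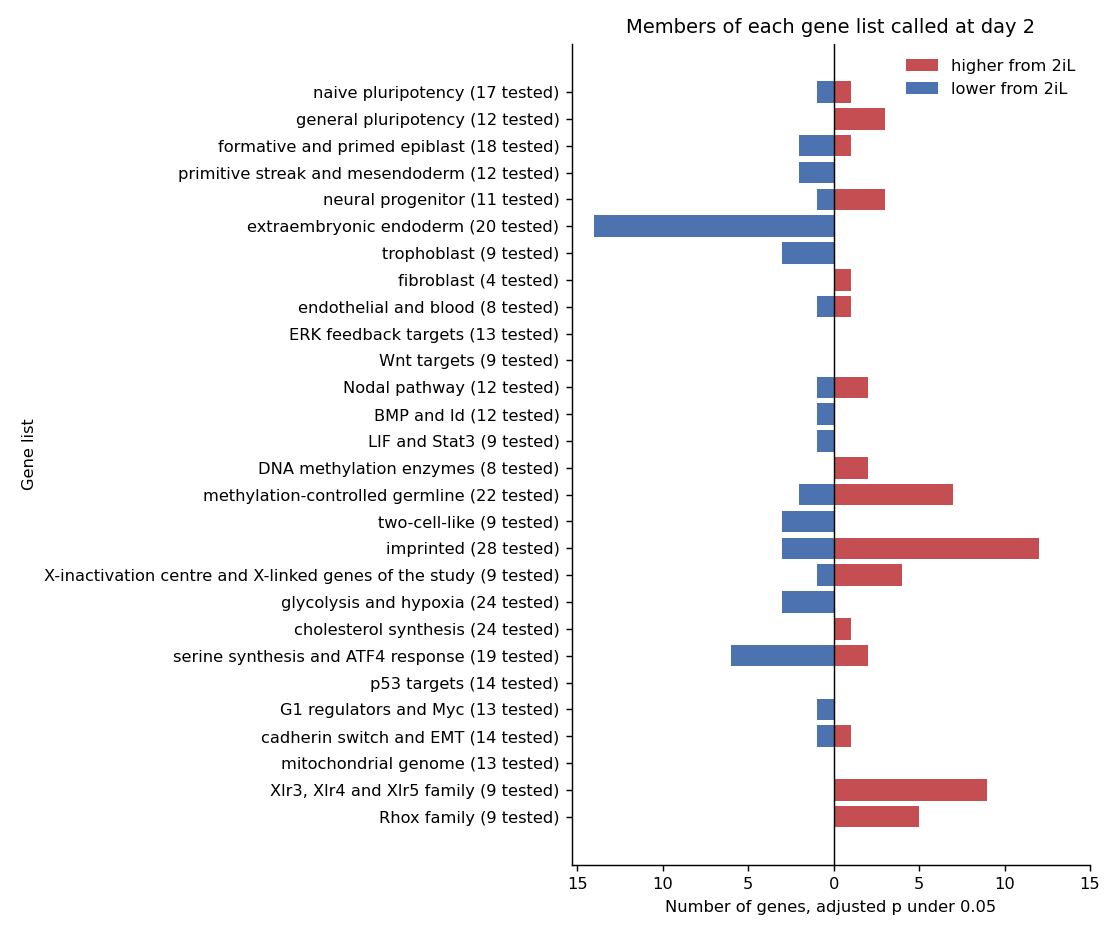
Number of genes of each list called at day 2 at an edgeR adjusted p under 0.05, with genes higher from 2iL to the right in red and genes lower from 2iL to the left in blue, beside the number tested. Extraembryonic endoderm has 14 lower and 0 higher genes, and the imprinted list has 12 higher and 3 lower. Over all genes tested, 4.7% were lower and 5.26% higher.

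On the X chromosome the study's central gene was higher from 2iL at day 2. Xist, the RNA that silences an X chromosome in female cells, was at 15.8, 11.1 and 13.7 CPM from 2iL and at 3.21, 2.77 and 3.92 CPM from SL in these male cells (log2 fold 2.04, SE 0.17, edgeR adjusted p = 0.0045), and every 2iL library was above every SL library. Its antisense partner Tsix, counted by strand, was at 7.1, 4.04 and 4.44 CPM against 3.76, 2.24 and 2.67 CPM (log2 fold 0.84, edgeR adjusted p = 0.046), and this call was lost in DESeq2, with library totals, without the block and without any 1 of the pairs. The neighbouring gene Tsx had a log2 fold of 1.19 and C77370, also called Nexmif, 1.72. Wbp5 was lower (-0.44). Ftx (log2 fold -0.34, edgeR adjusted p = 0.18) and Rlim (-0.05, SE 0.08), regulators of Xist, were not called, and Jpx did not pass the filter, at up to 0.817 CPM. Over the whole X chromosome, 56 of 546 tested genes were higher (10.3%) and 30 lower (5.49%), with a median log2 fold of 0.063. For all genes tested the shares were 5.26% and 4.7%, with a median of 0.018. The 56 include 11 genes of the Xlr region and 5 Rhox genes, so no shift of the whole chromosome is read. Of the 9 tested Y-linked genes, a group chosen after its values were seen, 6 were higher, from Uty (log2 fold 0.47) and the RNA helicase gene Ddx3y (0.59) to the zinc finger gene Zfy1 (2.66). Uba1y was at 44.8, 44.2 and 43.9 CPM from 2iL against 14.7, 9.97 and 11.9 CPM from SL (log2 fold 1.87, edgeR adjusted p = 0.0035). Eif2s3y was not called (log2 fold 0.14, edgeR adjusted p = 0.31).

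The genes called at day 2 were then followed on the other days, in libraries that had not been used to call them. These differences are descriptions on the log2(CPM + 0.5) scale, with no test, and at day 0 a single SL library stood against all 3 from 2iL. Genes higher from 2iL at day 2 had a median difference of 0.58 in the undifferentiated cells, 0.57 on day 1, 0.36 on day 3 and 0.029 on day 7. For genes lower from 2iL the median was -0.99 before differentiation, -1 a day later, -0.52 on day 3 and -0.15 on the last day. The day 2 medians of 0.8 and -1.06 come from the libraries that chose the genes, so their size relative to the other days is not read. Before differentiation, 75.6% of the higher genes were already higher and 14.9% of the lower genes were on the other side. The medians of all genes tested stayed between -0.0039 and 0.027.

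**Figure D4:**
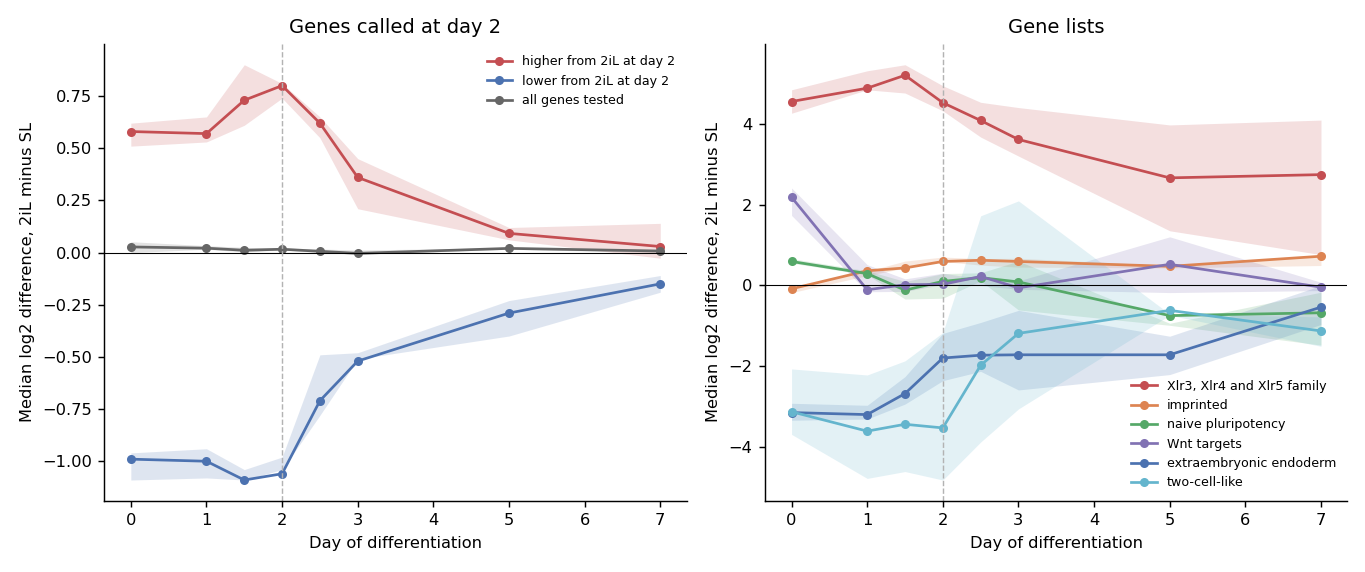
Median difference between media, 2iL minus SL on the log2(CPM + 0.5) scale, by day of differentiation, for genes called at day 2 (left) and for gene lists (right). Points are medians over genes of the mean over courses, shading spans the lowest to the highest median of a single course and may not enclose the point, and the dashed line marks day 2. The medians of the called genes are 0.029 and -0.15 at day 7, and those of day 2 come from the libraries that chose the genes.

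The lists took unlike paths. Wnt targets had a median difference of 2.18 at day 0 and -0.11 at day 1, and ERK feedback targets -1.17 and 0.0085, so both were near 0 a day after release from the inhibitors. Naive genes went from 0.59 at day 0 to 0.098 at day 2. Imprinted genes went from -0.086 at day 0 to 0.59 at day 2 and 0.72 at day 7. Extraembryonic endoderm genes went from -3.15 at day 0 through -1.8 at day 2 to -0.54 at day 7, and 2-cell-like genes from -3.13 through -3.53 to -1.13. The last list was uneven between courses, and at day 3 its median by course ran from -3.06 to 2.09. Within the Xlr genes, Xlr3b still had a difference of 4.62 at day 7, with 56.7 CPM from 2iL and 1.52 CPM from SL, while Xlr5b fell to 1.27 CPM from 2iL.

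Single genes crossed over between day 0 and day 2. Dnmt3l had 6.96 CPM from 2iL and 284 CPM from SL at day 0, 553 and 398 CPM at day 1, and 590 and 234 CPM at day 2, on average. By day 7 it had 16.5 and 27.9 CPM. Xist had 0.174 CPM from 2iL and 1.21 CPM from SL at day 0, 1.68 and 2.76 CPM at day 1, 15.6 and 4.67 CPM at day 1.5, and 2.1 and 1.7 CPM by day 3. Plagl1 did not cross but fell steeply, from 321 CPM from 2iL at day 0 to 7.38 CPM at day 2, with 0.841 and 1.02 CPM from SL, and was back at 151 and 9.63 CPM at day 5. Grb10 had 101 and 245 CPM at day 0 and 95.2 and 742 CPM at day 7. Cubn rose from 2iL from 0.89 CPM at day 0 through 119 CPM at day 2 to 545 CPM at day 7, and had 262, 961 and 749 CPM from SL.

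Libraries of days 1 and 3 gave the direction in which the same genes were moving, without use of any day 2 library. Between day 1 and day 3, genes that were higher from 2iL at day 2 changed by a median log2 of -0.91 within 2iL, where 85.7% fell, and by -0.63 within SL, where 79.8% fell. Genes that were lower from 2iL changed by 1.33 within 2iL, where 90.8% rose, and by 0.82 within SL, where 80.7% rose. All genes tested had medians of 0.0069 and 0.0085. Genes higher from 2iL were mostly falling in both media over this interval, and genes lower from 2iL mostly rising. The lists kept to their own course: extraembryonic endoderm genes had a median rise of 2.26 within 2iL and 0.47 within SL, 2-cell-like genes rose by 1.55 within 2iL and fell by 1.01 within SL, and naive genes fell by 2.94 and 2.31.

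Whether the difference itself changed with time was tested in an edgeR fit over the 18 libraries of days 1, 2 and 3. Against day 1, 94 of 15305 genes differed (0.614%), 51 of them with a more positive and 43 with a more negative difference at day 2. For 73 of the 94 the difference between media was nearer 0 at day 2. The 94 were chosen by a change in these same libraries. The share over all genes tested was not counted, so no general shrinkage is read from it. On the log2(CPM + 0.5) scale Cubn had a difference of -7.83 at day 1 and -3.08 at day 2, and its fitted log2 change, which does not carry that pseudocount, was larger (4.95, SE 0.63, edgeR adjusted p = 0.019), and Dab2, the Wnt antagonist Dkk1 and the Hippo pathway gene Amot shrank likewise, with fitted changes of 3.8, 4.13 and 3.79. The neural gene Sox21 had differences on the log2(CPM + 0.5) scale of 2.48 at day 1 and 0.58 at day 2. Nes, also neural, had 1.18 and -0.3. The neural progenitor list had a median difference of 0.23 at day 1, with 6 of its 11 tested genes positive. Sox21 and Nes, like Dkk1 and Amot, were chosen after their values were seen. Against day 3, 0 of 15305 genes (0%) passed the edgeR test, and 1585 had an unadjusted p under 0.05, against 2178 for day 1. Without the EB pair the counts were 166 against day 1 and 237 against day 3, and without the EpiSC or the Neural pair 1 and 0. With course as a single term they were 38 and 0.

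**Figure D5:**
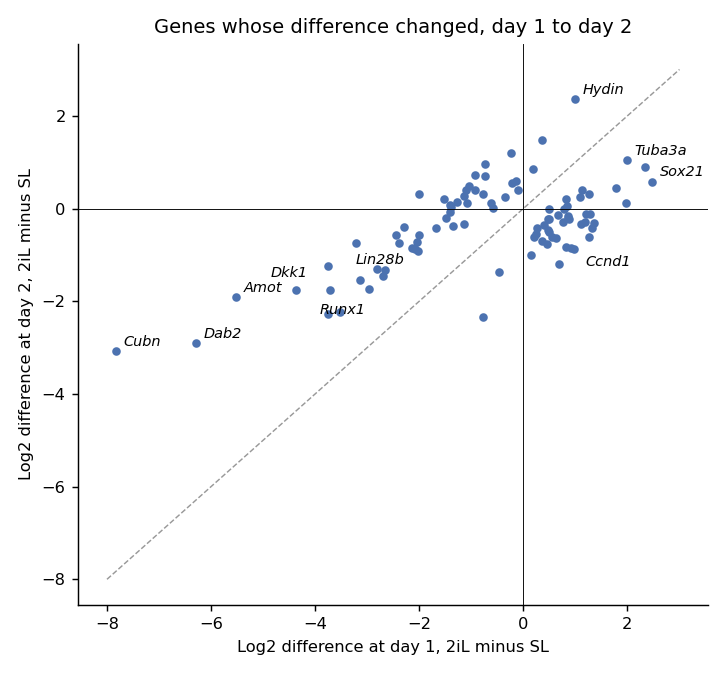
Difference between media at day 1 (horizontal) and at day 2 (vertical), 2iL minus SL on the log2(CPM + 0.5) scale, for the 94 genes whose difference changed between these days at an edgeR adjusted p under 0.05. The dashed line marks equal differences, and 73 of the genes lie nearer 0 at day 2 than at day 1, with Cubn at -7.83 and -3.08. The share over all genes tested was not counted.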

How the data were processed

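Strand-specific, ribosomal-RNA-depleted libraries were analysed for both media. Per the labels and the study's methods, the authors trimmed reads with TrimGalore, mapped them to GRCm38 (mm10) with TopHat2 guided by Ensembl release 82 models, and counted them by strand with featureCounts. They deposited raw counts, without normalization, for 35372 genes. Versions are not given in the sources used here.

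From the counts, TMM factors over all 45 libraries, CPM and fits were computed with R 4.3.3, edgeR 4.0.16 and, as an alternative, DESeq2 1.42.0. The design was course plus medium after filterByExpr, with Benjamini-Hochberg adjustment over all genes tested. Standard errors are the log2 fold over the root of its F statistic. Courses pair the libraries by label, and deviations of same-course libraries from their medium's mean correlated at 0.58, 0.34 and 0.59. Descriptive log2 values carry a pseudocount of 0.5 CPM. The day 2 fit was also run on simulated counts with a single fixed spread and the same medium effect in every course. That setting is simpler than these data, so the run does not show how the fit performs on them. Positions come from GENCODE M21 (34599 genes found) and sequences from RefSeq, with promoter windows for 72.4% of the genes tested.

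Named genes are the 10 largest changes in each direction with at least 1 CPM in the higher medium, up to 5 called members of each list or its most abundant member, and 22 genes always named. The other genes named were chosen after their values were seen. Members and lists were chosen with earlier results of these data known.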

Additional observations from a re-analysis of the deposited data

Results flagged for a closer look

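For 4 of the named genes the difference between media changed between day 1 and day 2 in the edgeR test of that change over the 18 libraries of days 1 to 3. Changes are fitted log2 values, the difference at day 2 minus that at day 1. The differences given for single days are on the log2(CPM + 0.5) scale, which understates those of low genes, so they need not subtract to the fitted change. Cubn, an endocytic receptor of visceral endoderm, changed by 4.95 (SE 0.63, edgeR adjusted p = 0.019), with a smaller deficit from 2iL in the later libraries. Runx1, a factor of blood formation, changed by 3.19 (SE 0.48, edgeR adjusted p = 0.027), with differences of -3.71 at day 1 and -1.76 at day 2. Lin28b, a repressor of let-7 miRNAs, changed by 1.37 (SE 0.22, edgeR adjusted p = 0.033), with differences of -2.05 and -0.72. Ccnd1, cyclin D1, changed by -1.78 (SE 0.15, edgeR adjusted p = 0.0026), with differences of 0.91 at day 1 and -0.86 at day 2. Against day 3, the adjusted p-values of the 4 genes were between 0.3 and 0.52.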

How the results depend on the processing

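None of the 78 named genes called changed sign under an alternative. Since every called gene had the same sign in all courses, a reversal was hardly possible, so this says little about robustness. The share of called genes that were higher from 2iL, 52.8%, was 35.8% with library totals, 48.5% with DESeq2, 47.6% without the filter and 45.4% without the EB pair. The number of called genes, 1404, was 1941 with DESeq2's Wald test, 1890 without the filter, 1318 with the stricter filter, 1671 with library totals, 1426 with the 2iL EB library thinned to the SL EB total, and 1425 with TMM over the 6 libraries, an alternative chosen after seeing the data. It was 2255 with the spread taken over all libraries of days 1 to 7. With a pair left out it ranged from 223 to 2076. Without the replicate block it was 226, all among the 1404. Without that block, 1 naive, 7 extraembryonic endoderm, 6 imprinted, 2 germline and 0 2-cell-like genes were called, against 2, 14, 15, 9 and 3 with it. With a pair left out these counts ranged from 0 to 7 (naive), 6 to 20 (imprinted), 3 to 12 (germline) and 0 to 12 (2-cell-like). The other changed counts were 9 2-cell-like genes with DESeq2, 11 with no filter and 8 with library totals, and 4 naive genes with no filter and 4 with library totals. Of the 78 named genes called, 21 stayed called under every alternative and 29 without the block. The count against day 1, 94, was 38 with course as one term and 1 to 166 with a pair left out. The count against day 3, 0, was 0 to 237. Medians of the lower genes at days 0, 1, 1.5 and 3 became -1.2, -1.21, -1.28 and -0.54 with a pseudocount of 0.1 CPM and -0.86, -0.84, -0.93 and -0.5 with 1 CPM, and that of the higher genes at day 2.5 became 0.56 with 1 CPM. Genes under 0.198 CPM rest on 3 counts or fewer in the shallowest library, and each culture was grown once.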

Other observations

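Genes outside the lists formed further groups, all chosen after their values were seen. A cluster of zinc finger genes on chromosome 4 (chr4:145670685-147391004, GRCm38) was higher from 2iL at high levels. Of its 15 tested genes, 14 were called higher and 0 lower, with a median log2 fold of 1.23. Higher calls made up 5.26% of all genes tested. Rex2 was at 2460, 2290 and 2240 CPM in the EB, EpiSC and Neural libraries from 2iL and at 530, 623 and 650 CPM in those from SL (log2 fold 1.96), and Zfp600 was at 2230, 2150 and 2110 CPM against 451, 527 and 569 CPM (log2 fold 2.08). These genes are close copies, so their counts are uncertain one by one. The homeobox genes Cphx1, Cphx2 and Cphx3 on chromosome 14 had log2 folds of 2.4 to 2.41, with Cphx1 at 15.4, 76.6 and 66.8 CPM against 3.18, 12.6 and 13.2 CPM, and are near-identical too.

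Lysosomal cathepsins were lower from 2iL. Of 18 listed, 8 were tested, and of these 5 were called lower and 0 higher, with a median log2 fold of -1. Lower calls made up 4.7% of all genes tested. Ctsl was at 110, 82.3 and 70.8 CPM from 2iL and at 591, 294 and 234 CPM from SL (log2 fold -2), and Ctsh at 1.66, 0.535 and 0.698 CPM against 39.9, 10.4 and 9.48 CPM (log2 fold -4.31). Of 16 apolipoprotein genes listed, 11 were tested, and Apoa1, Apoa4, Apob and Apoe were called lower. The 11 had a median log2 fold of -0.32, with 5 positive and 6 negative and a maximum of 1.37. Apob was at 53.7, 18.7 and 8.31 CPM against 700, 210 and 52.9 CPM (log2 fold -3.34). The summed level of extraembryonic endoderm markers was also lower from 2iL (989 to 1330 CPM against 2740 to 5070 CPM), and its part in these results was not tested.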
